A study of Mus musculus with 10 samples.

Results

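The 8 genes described here write and erase cytosine methylation in DNA: the methyltransferase genes Dnmt1, Dnmt3a and Dnmt3b, their partners Uhrf1 and Dnmt3l, and the dioxygenase genes Tet1, Tet2 and Tet3. They were taken by symbol from a table of 23234 mouse genes, all 8 were found, and all 8 passed a filter on low values. RNA was sequenced in 10 libraries of mouse ovarian follicle cells, and transcript levels are given as FPKM, a fragment number corrected for the length of the transcript and the size of the library. Whole cumulus-oocyte complexes, the oocyte with its attached cumulus cells, were collected at an age of 3 weeks after priming with PMSG, a gonadotropin, with 1 library of the DBA/2 strain and 1 of BDF1, a cross of C57BL/6 and DBA/2. Mural granulosa cells, the layer along the follicle wall, were from C57BL/6 ovaries at 2 months (2 libraries). The labels' library protocol names mural cells of mice primed with eCG, another name for the same gonadotropin, and gives no priming for the cumulus groups. Cumulus cells, the granulosa cells around the oocyte, were of the same strain, with 3 libraries at 10 months and 3 at 2 months. The basic culture medium listed for every sample held milrinone, an inhibitor of phosphodiesterase. Whether replicates are separate animals is not given in the labels, and p-values therefore reflect the spread among these libraries, possibly a technical one.

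DNMT1 copies methylation onto the new strand after DNA replication, and UHRF1 recognises the half-methylated CpG sites left by replication and brings DNMT1 to them. DNMT3A and DNMT3B set methylation on unmethylated DNA, and DNMT3L, which has no catalytic activity of its own, stimulates them and is needed in mouse oocytes for maternal imprints. TET enzymes oxidise methylcytosine, which starts its removal. Mouse oocytes store DNMT1 in large amounts, made from a transcript that starts in an upstream exon of its own, and they start Dnmt3l transcripts within the neighbouring gene Aire.

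Since Dnmt1 and Dnmt3l are known to have separate starts in oocytes, the sequence around the outermost of their 3 RefSeq starts each is shown, with the CpG-rich start of Uhrf1 beside it. Which of these starts oocytes use was not assigned here. Each window runs from 250 bases before to 50 bases after a start in the GRCm38.p6 assembly, whereas the deposited table was made on mm9, and all 8 genes matched, with 15 windows. CpG sites are in capitals. The most upstream Dnmt1 window is at chr9:20959839-20960138 (minus strand), and the most downstream one, 7265 bases further on, is at chr9:20952574-20952873. The most upstream Dnmt3l window is at chr10:78042037-78042336 (plus strand), within Aire, and the most downstream one, 13048 bases further on, is at chr10:78055085-78055384. The Uhrf1 window is at chr17:56304063-56304362 (plus strand), the more downstream of its starts.
Dnmt1, upstream start: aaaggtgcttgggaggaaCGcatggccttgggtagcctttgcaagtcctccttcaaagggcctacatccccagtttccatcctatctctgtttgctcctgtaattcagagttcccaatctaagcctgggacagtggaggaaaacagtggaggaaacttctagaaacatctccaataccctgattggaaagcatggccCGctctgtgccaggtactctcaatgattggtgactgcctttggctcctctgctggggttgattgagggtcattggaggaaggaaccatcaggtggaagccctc
Dnmt1, downstream start: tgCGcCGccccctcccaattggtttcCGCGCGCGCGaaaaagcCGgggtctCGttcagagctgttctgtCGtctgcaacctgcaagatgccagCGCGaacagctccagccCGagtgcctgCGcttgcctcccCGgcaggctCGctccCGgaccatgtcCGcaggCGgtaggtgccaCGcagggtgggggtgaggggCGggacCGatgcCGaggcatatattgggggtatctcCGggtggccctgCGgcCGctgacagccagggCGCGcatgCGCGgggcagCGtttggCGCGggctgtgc
Dnmt3l, upstream start: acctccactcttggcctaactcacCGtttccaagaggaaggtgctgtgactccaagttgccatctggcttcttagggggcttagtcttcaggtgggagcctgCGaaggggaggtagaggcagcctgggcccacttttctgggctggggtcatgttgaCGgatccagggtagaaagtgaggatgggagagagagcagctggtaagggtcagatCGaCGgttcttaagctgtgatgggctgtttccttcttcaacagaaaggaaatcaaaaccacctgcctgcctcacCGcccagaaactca
Dnmt3l, downstream start: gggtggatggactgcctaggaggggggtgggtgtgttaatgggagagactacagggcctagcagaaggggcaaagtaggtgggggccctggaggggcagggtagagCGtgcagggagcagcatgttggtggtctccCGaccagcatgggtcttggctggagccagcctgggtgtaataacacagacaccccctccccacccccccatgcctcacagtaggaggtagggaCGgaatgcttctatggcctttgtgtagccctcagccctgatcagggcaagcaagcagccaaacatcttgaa
Uhrf1, downstream start: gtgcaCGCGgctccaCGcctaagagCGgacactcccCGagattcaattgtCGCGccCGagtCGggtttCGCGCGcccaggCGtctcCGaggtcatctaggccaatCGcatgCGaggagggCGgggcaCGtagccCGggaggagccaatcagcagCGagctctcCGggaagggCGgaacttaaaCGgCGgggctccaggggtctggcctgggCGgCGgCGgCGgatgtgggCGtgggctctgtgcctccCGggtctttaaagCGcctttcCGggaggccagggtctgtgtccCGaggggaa

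The upstream Dnmt1 window held 2 CpG sites and the downstream one 33. Of 32851 such windows in the RefSeq table, 85.9% hold at least 2 and 8.56% at least 33. The Dnmt3l windows shown held 6 and 3 CpG sites, counts reached by 56.4% and 76.7% of windows, and the Uhrf1 window held 33. The middle windows, not shown, held 12 CpG sites for Dnmt1 and 4 for Dnmt3l. Letters typical of E2F sites (TTTCCCGC, TTTCGCGC, TTTGCCGC or TTTGGCGC, on either strand, each of which contains a CpG) occurred 2 times in the downstream Dnmt1 window and 1 time in the Uhrf1 window, but not in the upstream Dnmt1 window or in any Dnmt3l window. At least 1 such match occurs in 2.26% of all windows. CCAAT, on either strand, occurred 5 times in the upstream and 3 times in the downstream Dnmt1 window, 2 times in the Uhrf1 window and in no Dnmt3l window, against 37.4% of all windows with a match. The E-box letters CANNTG occurred 4 times in the upstream Dnmt3l window and 1 time in each Dnmt1 window shown, and 72.3% of all windows hold them. Of the windows not shown, the upstream one of Uhrf1 held 12 CpG sites, 0 E2F matches and 3 of CCAAT. The middle Dnmt1 window held 0 E2F and 0 CCAAT matches. A match describes the letters and is not evidence of a bound factor. The table gives 1 level per gene, so transcripts from different starts cannot be told apart in the values that follow.

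Libraries differed in how much oocyte RNA they held, which bears on every comparison below. Zp3, an egg-coat gene of the oocyte, had 438 FPKM in the DBA/2 complex and 480.3 FPKM in the BDF1 complex. It had 20.0 and 4.24 FPKM in mural cells, 42.0, 18.8 and 53.3 FPKM in 10-month cumulus cells, and 33.3, 0 and 158 FPKM in 2-month cumulus cells. Set against the mean of the complexes, the 2-month cumulus libraries thus held 7.26, 0 and 34.4% of the complexes' Zp3 level, and the 10-month ones 9.14, 4.09 and 11.6%. The summed level of 16 oocyte markers was 3593 and 3818 FPKM in the complexes, 181 and 26.9 FPKM in mural cells, 203 to 433 FPKM in 10-month cumulus cells, and 270.5, 5.86 and 1384 FPKM at 2 months, where 10 of the 16 markers were listed at 0 in replicate 2. Granulosa markers were present in every library, with none of 10 listed at 0. This was so of mural, cumulus and complex libraries alike, so their presence does not tell these groups apart. Their summed level did differ, at 12141 and 11071 FPKM in mural cells and 6482 and 5347 FPKM in the complexes. It was 5702, 5465 and 4124 FPKM in 10-month cumulus cells, and 6775, 5479.7 and 4178 FPKM at 2 months. Replicate 3 at 10 months stood apart by its mural markers, summing to 1707 FPKM over 6 genes, against 219 to 285 FPKM in cumulus cells at 2 months. Summed FPKM ran from 470377 to 603460 per library and 11373 to 12637 genes reached an FPKM of 1.

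Dnmt1 was the most abundant of the 8 genes in both complexes, at 191 FPKM in the DBA/2 and 260.4 FPKM in the BDF1 library. It had 31.0 and 25.8 FPKM in mural cells, 62.0, 45.4 and 51.7 FPKM in 10-month cumulus cells, and 62.7, 51.7 and 105 FPKM in 2-month cumulus cells. Both complexes lay above every other library, and the highest cumulus library, replicate 3 at 2 months, was also the one with the most Zp3. Over the 2-month cumulus mean on the log2(FPKM + 1) scale, the ratio was 2.71-fold for the DBA/2 and 3.69-fold for the BDF1 complex. Adding 1 to each value pulls ratios of low levels towards 1, while averaging logs gives low libraries more weight than a plain mean does.

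Dnmt3l had 22.3 FPKM in the DBA/2 complex and 25.6 FPKM in the BDF1 complex. It had 2.29 FPKM in 1 mural library and was listed at 0 in the other, had 4.53, 2.11 and 3.27 FPKM in 10-month cumulus cells, and had 2.28, 0 and 11.5 FPKM at 2 months. The complexes were again highest, replicate 3 at 2 months came next, and the 2 libraries listed at 0 were those with the lowest Zp3. The ratio over 2-month cumulus cells was 6.75-fold for the DBA/2 and 7.70-fold for the BDF1 complex, and 4.84-fold and 5.56-fold over the plain mean of FPKM, a ratio added after seeing the data. The mean log2 ratio of both complexes, 2.85, was 1.96 without 2-month replicate 2 and 3.78 without replicate 3. Dnmt3l overlaps Aire, and the strandedness of the libraries is not given, so reads in the shared stretch are uncertain. The same limit holds for Dnmt1, Dnmt3a, Tet1 and Tet3, which overlap other annotated genes. Aire itself had 4.72 and 8.33 FPKM in the complexes, 0.777 and 0 FPKM in mural cells, 5.26, 5.06 and 1.82 FPKM in 10-month cumulus cells, and 7.43, 4.56 and 5.54 FPKM at 2 months. Its level in the 2-month library where Dnmt3l was listed at 0 lay within the range of the other cumulus libraries.

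Dnmt1 and Dnmt3l were the 2 of 8 genes at least 2-fold higher in both complexes than in 2-month cumulus cells, and 0 of 8 were at least 2-fold lower. Of 12454 genes compared, 10.9% were at least 2-fold higher in both complexes and 1.84% lower. With 1 library per strain there is no replicate check and no p-value, and strain, age, priming and the presence of the oocyte cannot be told apart. Uhrf1 stood at 98.6 and 102 FPKM in the complexes, 1.49- and 1.54-fold over 2-month cumulus cells, and Tet3 at 18.9 and 14.9 FPKM, 1.92- and 1.53-fold. Dnmt3a had 20.8 and 22.3 FPKM and Dnmt3b 4.07 and 4.19 FPKM, with log2 ratios of 0.06 to 0.16, beside a median over all genes of 0.15 for the DBA/2 and 0.17 for the BDF1 library. Tet1, at 1.94 and 2.59 FPKM, and Tet2, at 1.81 and 1.96 FPKM, had log2 ratios of -0.37 and -0.08 and of -0.31 and -0.24. In bulk samples, more cells of a type and more RNA per cell cannot be told apart.

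**Figure D1:**
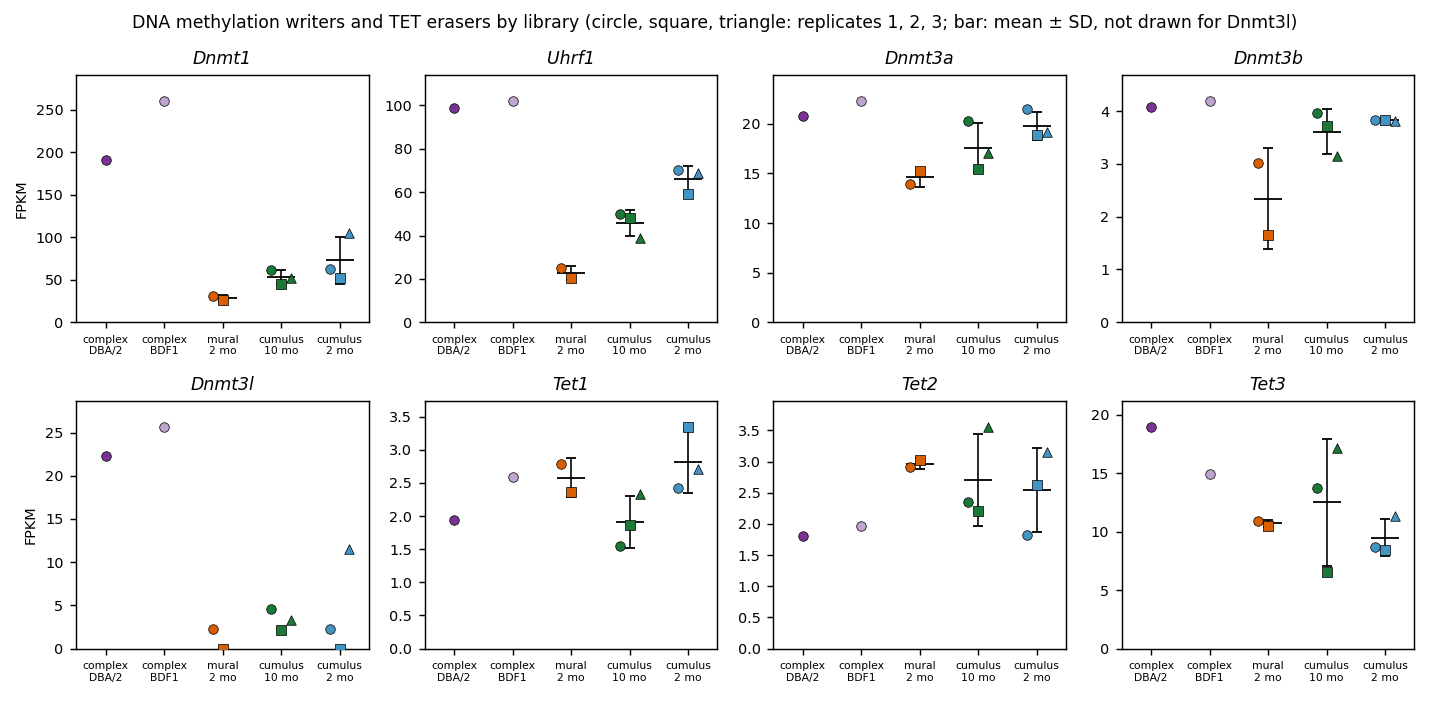
FPKM (y axis, from 0) of the 8 genes in each library, with groups along the x axis; circles, squares and triangles are replicates 1, 2 and 3, and bars show the mean ± SD of groups with more than 1 library, left out for Dnmt3l because it was listed at 0 in 2 libraries. Dnmt1 and Dnmt3l were highest in the complexes, Uhrf1 was lowest in mural cells at 25.2 and 20.6 FPKM, and Dnmt3a, Dnmt3b and the Tet genes spanned a narrower range.

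How much of each level oocyte RNA could account for was worked out by scaling the complex value by Zp3. A library's Zp3 level divided by that of a complex, times the gene's level in that complex, gives the level implied by its oocyte RNA, provided that gene and Zp3 keep the ratio they have in the complexes. The value is an upper one where cumulus cells of the complex hold the transcript too. For Dnmt3l the ratio was 5.09 and 5.33 FPKM per 100 FPKM of Zp3 in the complexes. It was 11.4 and 0 in mural cells, 10.8, 11.2 and 6.14 in 10-month cumulus cells, and 6.85 and 7.31 in the 2-month libraries with Zp3. The implied Dnmt3l level was 8.03 to 8.40 FPKM in 2-month replicate 3, which had 11.5 FPKM, and 1.70 to 1.78 FPKM in replicate 1, which had 2.28 FPKM, while replicate 2, with no Zp3, was listed at 0. At 10 months it was 48.3, 46.4 and 84.9% of the observed level. Over the 5 cumulus libraries with Dnmt3l the median implied share was 71.3%, and it was 58.2% with Zp2, 58.6% with Gdf9 and 89.3% with Bmp15, other oocyte genes, in place of Zp3.

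The same calculation left most Dnmt1 in all but 2 cumulus libraries. In 2-month replicate 2, with Zp3 and Dnmt3l listed at 0, Dnmt1 still had 51.7 FPKM and Uhrf1 59.2 FPKM, so transcripts of both were measured where oocyte markers summed to 5.86 FPKM. The implied Dnmt1 level was 68.7 to 85.5 FPKM in 2-month replicate 3, or 73.8% of its 105 FPKM, and 26.0% of the level in replicate 1. At 10 months it was 33.1, 20.2 and 50.4% of the observed level, and in mural cells 31.6 and 8.05%. The median share over the 6 cumulus libraries was 29.5%, and it was 23.9 to 31.8% with Zp2, Gdf9 or Bmp15.

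Taking the level of 2-month replicate 2 as the cumulus part, an alternative chosen after seeing the data, gave a second reading. The cumulus part of 51.7 FPKM plus the added oocyte part came to 102 to 120.2 FPKM for 2-month replicate 3, which had 105 FPKM, and to 62.3 to 66.2 FPKM for replicate 1, which had 62.7 FPKM. At 10 months the sums were 65.1 to 70.0, 57.7 to 59.9 and 68.7 to 74.9 FPKM, each above the observed 62.0, 45.4 and 51.7 FPKM. In mural cells the sums of 58.1 to 60.4 and 53.1 to 53.6 FPKM were also above the observed 31.0 and 25.8 FPKM. Both of these 2-month libraries lay within their sums, and the 5 libraries of the other groups lay below theirs. Both mural libraries and 10-month replicates 2 and 3 were already at or below 51.7 FPKM before any oocyte part was added. Their place below the sums thus restates their lower Dnmt1 and cannot tell anything of their oocyte RNA. Of the 8 genes, only Dnmt1 had 2-month replicates 1 and 3 both within such sums. Uhrf1 had 70.0 FPKM in replicate 1, against a sum of 62.2 FPKM, and 68.7 FPKM in replicate 3, against 73.2 to 73.4 FPKM. Dnmt3l lay above its sums in both, and Tet3 lay within its sums in replicate 3 alone.

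A model across genes asked whether a gene moved with Zp3 within groups. With group and log2(Zp3 + 1) as terms over the 8 C57BL/6 libraries, 1 of the 8 genes passed the test, Dnmt3l, with a slope of 0.49 ± 0.07 (SE) log2 units per log2 unit of Zp3 (95% interval 0.32 to 0.66; limma adjusted p = 0.0215). Of 12411 genes tested, 1.42% passed, 1.40% with a positive slope and 0.0161% with a negative one. The Dnmt3l call was lost when any of several libraries was left out: limma adjusted p was 0.117 without 2-month replicate 2, 0.420 without 2-month replicate 3, 0.0631 and 0.0762 without 10-month replicates 1 and 2, and 0.0574 and 0.0545 without mural replicates 1 and 2, with slopes of 0.41 to 0.77. Without both of the 2-month libraries at the ends of the Zp3 range, left out after seeing the data, the slope was 0.70 and 0 genes passed.

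The Dnmt1 slope was 0.13 ± 0.04 (95% interval 0.04 to 0.21) and did not pass (limma adjusted p = 0.370). It was 0.07 without 2-month replicate 3 and 0.23 without replicate 2. Uhrf1, Dnmt3a, Dnmt3b, Tet1, Tet2 and Tet3 had slopes of -0.03 to 0.07, with a limma adjusted p of 1.00 each, and the Tet3 slope was 0.26 without 2-month replicate 2. For scale, Zp2, another egg-coat gene, had a slope of 0.91 and Gdf9, an oocyte growth factor gene, of 1.02, both with a limma adjusted p of 6.61e-04. Adding 1 before the log flattens slopes of genes at low levels, such as Dnmt3l, so its slope is not directly comparable with these. In the plot against Zp3, every C57BL/6 library with Dnmt3l lay above both lines of constant ratio. By the ratio to Zp3, 10-month replicate 3 and 2-month replicates 1 and 3 lay least above them. In FPKM, 2-month replicate 3 lay furthest above, by 3.30 FPKM over the mean of the lines. Uhrf1 and Dnmt3a lay further above theirs.

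**Figure D2:**
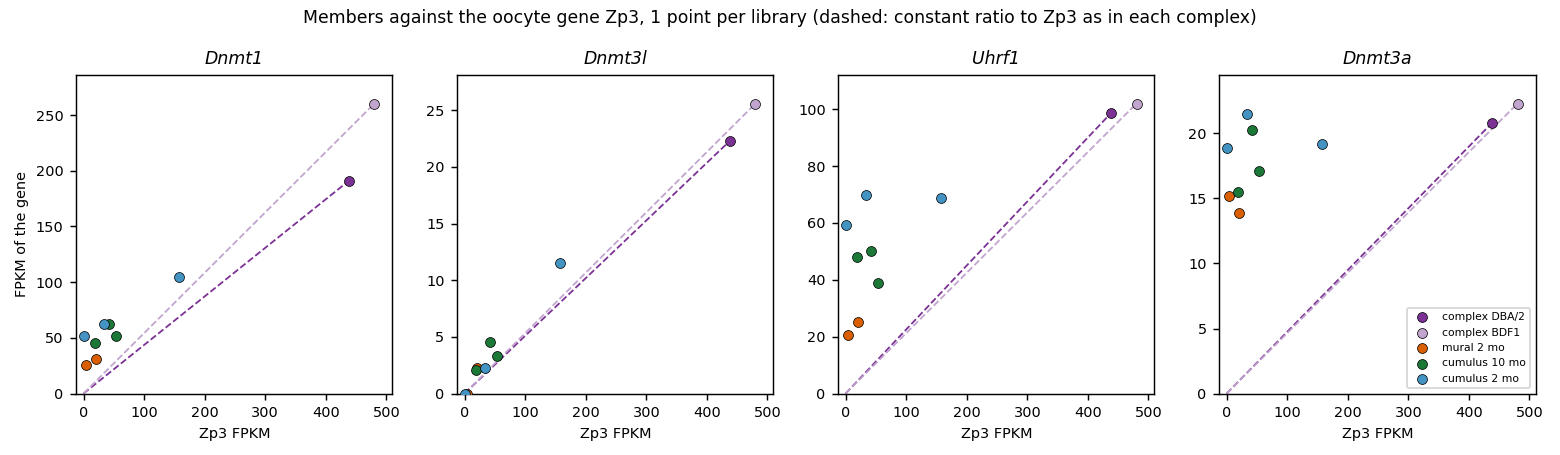
FPKM of Dnmt1, Dnmt3l, Uhrf1 and Dnmt3a (y axes) against FPKM of Zp3 (x axis), 1 point per library coloured by group; dashed lines run from 0 through each complex at a constant ratio to Zp3. Dnmt3l reads 11.5 FPKM in 2-month cumulus replicate 3, where the lines give 8.03 to 8.40 FPKM, and 2-month cumulus replicate 2 has 51.7 FPKM of Dnmt1 and 59.2 FPKM of Uhrf1 at a Zp3 level of 0.

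The maintenance pair was lower in mural than in cumulus cells at 2 months. Uhrf1 had 25.2 and 20.6 FPKM in mural cells, against 70.0, 59.2 and 68.7 FPKM in cumulus cells. The groups did not overlap, and Uhrf1 fell by 1.49 on the log2 scale in mural cells (SE 0.17; 95% interval -1.87 to -1.11; limma adjusted p = 0.00343), to 22.9 ± 3.23 FPKM in mural cells (SD, n = 2), against 66.0 ± 5.89 FPKM in cumulus cells (SD, n = 3). Dnmt1 averaged 28.4 ± 3.65 FPKM in mural cells and 73.0 ± 27.9 FPKM in cumulus cells, with no overlap, and fell by 1.27 on the log2 scale (SE 0.29; 95% interval -1.94 to -0.60; limma adjusted p = 0.0209). With Zp3 as a covariate the Dnmt1 difference was -1.18 (limma adjusted p = 0.0139) and that of Uhrf1 -1.47 (limma adjusted p = 0.00873). These were the 2 of 8 genes that passed, both lower, where 20.9% of 12412 genes passed, 11.2% as lower and 9.69% as higher in mural cells.

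Limits of these calls lie in the mural group of 2 libraries. Uhrf1 passed in 16 of 17 alternatives and lost its call without mural replicate 2 (-1.35, limma adjusted p = 0.0521). Dnmt1 passed in 14 of 17, and lost its call without mural replicate 1 (-1.40, limma adjusted p = 0.0832), without mural replicate 2 (-1.15, limma adjusted p = 0.150) and with libraries rescaled to the same sum (-1.07, limma adjusted p = 0.0558). The sum left out genes with symbols starting with Mir or Snor, which held 10.3 to 21.4% of summed FPKM per library. That rescaling moved the median of all genes by 0.19 on the log2 scale, to 0.11. It gave 1723 genes higher and 961 lower in mural cells, against 1203 higher and 1396 lower without it. Priming, named for mural donors, cannot be told apart from cell type. Markers of other cells were also higher in the mural libraries. Those of theca and stroma summed to 102 and 150.0 FPKM over 8 genes in mural cells, against 6.69 to 7.35 FPKM in cumulus cells, and those of endothelium to 22.8 and 58.2 FPKM over 7 genes, against 1.60 to 5.06 FPKM. Immune markers summed to 22.5 and 54.1 FPKM over 12 genes in mural cells, against 4.39 to 8.34 FPKM in cumulus cells, and erythroid markers to 141 and 82.5 FPKM over 7 genes, against 13.3 to 21.4 FPKM. Among these lists, 2 and 1 of the erythroid genes were listed at 0 in the mural libraries and none of the others. Their part in the mural differences of the 8 genes and of the lists was not tested.

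The de novo genes were lower in mural cells without passing the test. Dnmt3a had 13.9 and 15.2 FPKM in mural cells, against 21.5, 18.9 and 19.2 FPKM in cumulus cells, a log2 difference of -0.42 (95% interval -0.77 to -0.07; limma adjusted p = 0.0854). Dnmt3b had 3.02 and 1.66 FPKM in mural cells, against 3.84, 3.84 and 3.81 FPKM in cumulus cells, a difference of -0.56 (limma adjusted p = 0.101). It was -0.86 without mural replicate 1 and -0.26 without mural replicate 2. With library weights both passed, Dnmt3a at -0.38 (limma adjusted p = 0.0238) and Dnmt3b at -0.56 (limma adjusted p = 0.0343), while Dnmt3a was at -0.22 with libraries rescaled to the same sum. Neither overlapped between the groups, which was so of 4 of the 8 genes, each lower in mural cells, and of 57.6% of all genes (32.0% lower and 25.6% higher in mural cells). For Dnmt3l the difference of -0.93 had a 95% interval of -3.19 to 1.33, since the cumulus libraries ranged from 0 to 11.5 FPKM.

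The Tet genes overlapped between mural and cumulus cells. Tet1 had 2.79 and 2.37 FPKM in mural cells, against 2.42, 3.34 and 2.71 FPKM in cumulus cells, with a log2 difference of -0.09 (95% interval -0.58 to 0.40), which was 0.07 with libraries rescaled to the same sum. Tet2 had 2.91 and 3.03 FPKM in mural cells, against 1.82, 2.63 and 3.16 FPKM in cumulus cells, a difference of 0.18 (95% interval -0.39 to 0.76) that was -0.02 after quantile normalization. Tet3, the most abundant of the 3 in every library, had 10.9 and 10.5 FPKM in mural cells, against 8.70, 8.40 and 11.3 FPKM in cumulus cells, a difference of 0.17 (95% interval -0.63 to 0.96). The limma adjusted p was 0.796 for Tet1, 0.628 for Tet2 and 0.761 for Tet3. Leaving out 2-month replicates gave 0.03 (without replicate 1) to 0.31 (without replicate 3) for Tet2, and 0.09 (without replicate 2) to 0.29 (without replicate 3) for Tet3.

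Between cumulus cells at 10 and 2 months, 0 of the 8 genes passed the test. This was so of all 12412 genes with limma (0% called), while 1727 genes (13.9%) had an unadjusted p under 0.05. Uhrf1 had the lowest adjusted p of the 8, with 50.1, 48.1 and 38.8 FPKM at 10 months, against 70.0, 59.2 and 68.7 FPKM at 2 months. The ages did not overlap, and the log2 difference was -0.53 ± 0.15 (SE; 95% interval -0.87 to -0.18; limma adjusted p = 0.240). Without 10-month replicate 3, the lowest of the 6 and the library with the most mural markers among them, it was -0.42 (limma adjusted p = 0.419). It was -0.60 without 10-month replicate 1 and -0.57 without replicate 2 (limma adjusted p = 0.381 and 0.138). Leaving out 2-month replicates 1, 2 and 3 in turn gave -0.48, -0.60 and -0.50. Tet1 did not overlap between ages either, with 1.55, 1.87 and 2.33 FPKM at 10 months, against 2.42, 3.34 and 2.71 FPKM at 2 months, and a log2 difference of -0.39 (95% interval -0.83 to 0.05; limma adjusted p = 0.404). Among all genes, 17.8% did not overlap between ages, 8.88% lower and 8.93% higher at 10 months.

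Dnmt1 overlapped between the ages, with a log2 difference of -0.40 (SE 0.26; limma adjusted p = 0.540). It was -0.11 without 2-month replicate 3, the library richest in Zp3, -0.61 without 2-month replicate 2 and -0.04 with library weights. With Zp3 as a covariate the Dnmt1 difference was -0.53 (95% interval -0.95 to -0.11; limma adjusted p = 0.388). The Dnmt3l difference was 0.28 with an interval of -1.74 to 2.30, and with the covariate -0.23 with an interval of -1.03 to 0.57. Dnmt3a differed by -0.17, Dnmt3b by -0.07, Tet2 by 0.07 and Tet3 by 0.28, with limma adjusted p-values of 0.621, 0.915, 0.937 and 0.736 in that order. Tet3 spread widely at 10 months, at 13.7, 6.54 and 17.1 FPKM, around its 2-month range of 8.40 to 11.3 FPKM, and its difference was 0.17, 0.65 and 0.02 without 10-month replicates 1, 2 and 3. That of Dnmt3a was -0.27 without 10-month replicate 1, -0.08 without 10-month replicate 2 and -0.11 without 2-month replicate 1. The mural and the age comparison share the 2-month cumulus libraries.

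**Figure D3:**
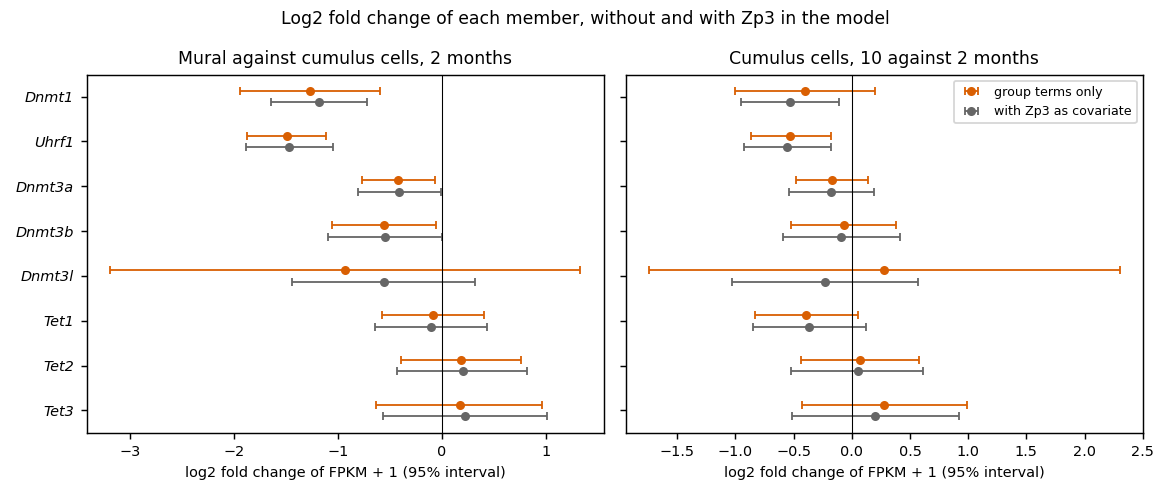
Log2 fold change of FPKM + 1 (x axis) with 95% intervals for the 8 genes (y axis), mural against cumulus cells at 2 months on the left and 10 against 2 months in cumulus cells on the right; orange points are from a model with group terms, grey points from one with Zp3 as a covariate, and the x axes differ in range. Uhrf1 at -1.49 and Dnmt1 at -1.27 stand apart in mural cells, and the mural Dnmt3l interval spans -1.44 to 0.32 with the covariate, against -3.19 to 1.33 without it.

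Genes that act with the 8 were read from lists of the pathway, against the 11.2% of all genes that passed as lower and the 9.69% that passed as higher in mural cells. Of 12 partners of the writers, 6 fell in mural cells (Uhrf2, Pcna, Hells, Cdca7, Lig1 and Smchd1) and 0 rose, with a median log2 difference of -0.50, beside -0.08 over all genes. Pcna, the replication clamp, had 112 and 123 FPKM in mural cells, against 275, 279 and 260.3 FPKM in cumulus cells, and fell by 1.21 on the log2 scale (limma adjusted p = 0.00777). Lig1, the ligase of the lagging strand, fell by 1.35 (limma adjusted p = 0.00961), Cdca7, which recruits the remodeller HELLS, by 1.27 (limma adjusted p = 0.0128), and Hells by 0.90 (limma adjusted p = 0.0139). Nsd1, which writes the histone mark read by DNMT3A, differed by -0.04 (limma adjusted p = 0.857).

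Of 12 replication and proliferation genes, 11 fell in mural cells and 0 rose, with a median of -1.02 beside -0.08 over all genes, of which 11.2% passed as lower. Mcm6, of the replicative helicase, fell by 1.34 (limma adjusted p = 0.00486) and Mcm5 by 1.51 (limma adjusted p = 0.00622). The median log2(FPKM + 1) of the list was 5.01 and 4.88 in mural cells, 5.78, 5.86 and 5.32 in 10-month cumulus cells, and 6.40, 6.25 and 6.04 in 2-month cumulus cells. Uhrf1 followed the same order of groups, whereas in the complexes, with list medians of 5.60 and 5.92, Uhrf1 and Dnmt1 lay above every cumulus library. The part of the replication genes in the differences of Uhrf1 and Dnmt1 was not tested.

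**Figure D4:**
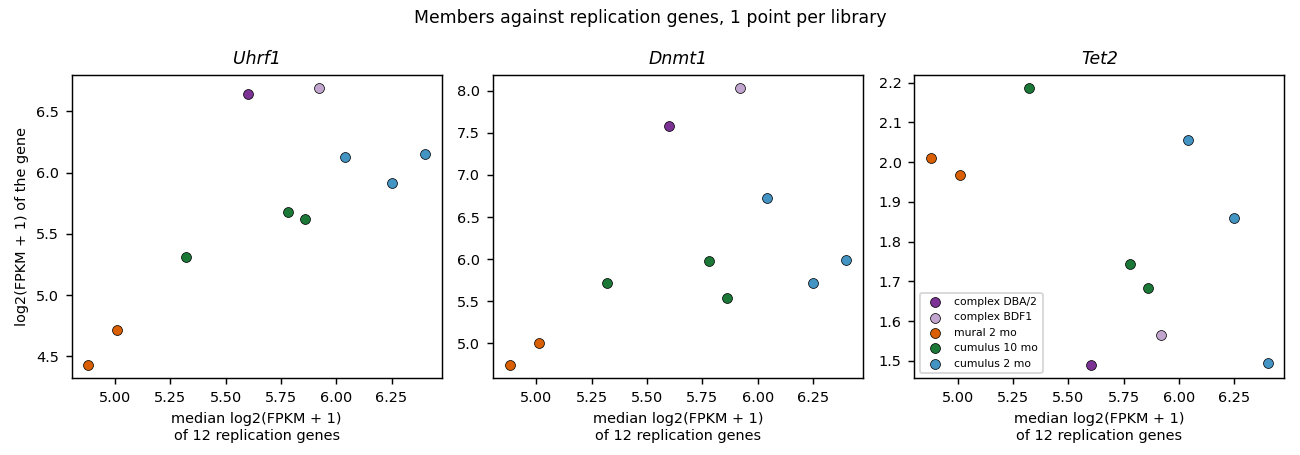
Level of Uhrf1, Dnmt1 and Tet2 as log2(FPKM + 1) (y axes, each with its own range) against the median log2(FPKM + 1) of 12 replication and proliferation genes (x axis), 1 point per library coloured by group. Mural libraries, at medians of 5.01 and 4.88, are lowest for Uhrf1 and Dnmt1, and the complexes, at 5.60 and 5.92, are highest.

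Of 14 measured genes of demethylation and base excision, 5 fell in mural cells and 2 rose, beside 11.2% and 9.69% of all genes, with a median of -0.55. Ung, a uracil glycosylase, had 14.0 and 10.6 FPKM in mural cells, against 36.2, 31.5 and 28.3 FPKM in cumulus cells, and fell by 1.31 (limma adjusted p = 0.00717). Gadd45b fell by 1.55 (limma adjusted p = 0.0176) and Gadd45g by 1.77 (limma adjusted p = 0.0264), both stress-response genes linked to demethylation, and Tdg, the glycosylase that removes the products of TET oxidation, and Apex1, the endonuclease that acts after it, fell as well. Ogt, whose product binds TET proteins, had 83.0 and 53.4 FPKM in mural cells, against 33.6, 30.5 and 27.1 FPKM in cumulus cells, and rose by 1.11 (limma adjusted p = 0.0240). Idh1, which makes the cofactor of TET enzymes, was the other gene that rose.

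Of 14 readers and protectors of methylation, 3 passed in mural cells, a share close to the 20.9% of all genes: Trim28 and Ctcf fell and Mbd2 rose. Mbd2, a methyl-CpG binding protein gene, had 35.0 and 35.2 FPKM in mural cells, against 25.5, 23.2 and 22.4 FPKM in cumulus cells, a rise of 0.55 (limma adjusted p = 0.0196). Of 13 measured genes of the methyl donor cycle, 4 fell and 0 rose, beside 11.2% and 9.69% of all genes: Shmt2 by 1.65 (limma adjusted p = 0.0129), Shmt1 by 1.23 (limma adjusted p = 0.0164), Mthfd1 by 1.11 (limma adjusted p = 0.00962) and Ahcy, which clears the product of methylation reactions, by 0.83 (limma adjusted p = 0.0250).

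These counts rest on few libraries. Without mural replicate 2, 0 genes of any of the 5 lists passed. Without mural replicate 1, 5 of the 12 replication genes, 2 of the 14 demethylation genes and 0 of the writers' partners, readers and donor cycle genes passed. Without 2-month cumulus replicate 2, 3 partners, 1 demethylation gene, 0 readers, 2 donor cycle genes and 7 replication genes passed. Without 2-month replicate 1 there were 3 demethylation genes, and without 10-month replicate 3 there were 5 readers. With libraries rescaled to the same sum, 3 partners passed, and 1 donor cycle gene passed as higher in mural cells. That count of 1 also came with library weights, with the replicate number as a block and with the 2 compared groups alone. It came without 10-month replicate 1 or 3 as well.

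With age, 0 genes of the 5 lists passed. Without 10-month replicate 2, 2 replication genes fell and 1 demethylation gene, Gadd45a, rose. Each of the 12 replication genes had a negative difference, with a median of -0.56 beside -0.02 over all genes, and limma adjusted p-values of 0.213 for Top2a (0.0384 without 10-month replicate 2), Mki67 and Mcm4 and 0.229 for Ccne2. Gadd45a had 42.9, 17.5 and 41.4 FPKM at 10 months, against 6.19, 7.51 and 9.84 FPKM at 2 months, a log2 difference of 1.90 with no overlap (limma adjusted p = 0.160, 0.0112 without 10-month replicate 2 and 0.0467 with library weights). Gadd45b had 27.1, 55.5 and 29.2 FPKM at 10 months, against 12.1, 17.0 and 21.0 FPKM at 2 months (limma adjusted p = 0.238). Mbd2 had 32.5, 32.1 and 35.6 FPKM at 10 months, against 25.5, 23.2 and 22.4 FPKM at 2 months (limma adjusted p = 0.212). Several lists of markers of other cells were higher at 10 months as well. Immune markers summed to 25.0, 61.7 and 66.3 FPKM over 12 genes at 10 months, against 4.39, 8.34 and 7.38 FPKM at 2 months. Theca and stroma markers summed to 22.7, 29.5 and 48.2 FPKM over 8 genes at 10 months, against 6.69, 7.35 and 6.74 FPKM at 2 months, and mural markers to 322, 749.8 and 1707 FPKM over 6 genes, against 250.4, 285 and 219 FPKM. None of these 3 lists overlapped between ages. Endothelial markers did, at 4.26, 5.28 and 21.2 FPKM over 7 genes at 10 months, against 3.73, 1.60 and 5.06 FPKM at 2 months. Erythroid markers did not, at 23.2, 21.9 and 136 FPKM over 7 genes at 10 months, against 19.3, 21.4 and 13.3 FPKM at 2 months. The part of these other cells in the age differences of the 8 genes and of the pathway lists was not tested.

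Within groups, 2 of the 14 readers and protectors rose with Zp3 and 0 genes of the other 4 lists did, beside 1.40% of all genes. Zfp57, which protects imprints from loss of methylation, had a slope of 0.88 (limma adjusted p = 6.61e-04) and Dppa3, which shields the maternal genome from TET3 in the mouse zygote, of 0.95 (limma adjusted p = 0.00239). Zfp57 had 275 and 261 FPKM in the complexes, 13.2 and 4.26 FPKM in mural cells, 21.0, 12.7 and 34.8 FPKM in 10-month cumulus cells, and 18.9, 0.137 and 109.7 FPKM at 2 months. Its highest and lowest cumulus libraries were those of Zp3. The Dppa3 call was lost without 2-month replicate 2 (limma adjusted p = 0.113) and without replicate 3 (limma adjusted p = 0.101).

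The genes most like each of the 8 over the 10 libraries were found by the Pearson correlation of log2(FPKM + 1), given as a description, since the points share libraries and depth and the complexes weigh heavily. For Dnmt3l they were Pramef12 (r = 0.996), Fbxw20 (0.993) and Ccno (0.993), with Zp3 itself at 0.966. For Dnmt1 they were Tubg2 (0.996), Chn1 (0.991) and Bms1 (0.991), with Zp3 at 0.796, and for Uhrf1 Kpna2 (0.986), Arhgap11a (0.986) and Aurka (0.984), with Zp3 at 0.594. Tubg2 had 32.6 and 39.1 FPKM in the complexes, 5.38 and 4.51 FPKM in mural cells, 9.73, 8.20 and 8.67 FPKM in 10-month cumulus cells, and 10.9, 9.08 and 15.2 FPKM at 2 months. Like Dnmt1, it remained well above 0 in the 2-month library without Zp3, where Pramef12 had 0.275 FPKM. The highest correlations were 0.968 for Dnmt3a (Ing5), 0.960 for Dnmt3b (Cyp2s1), 0.920 for Tet1 (Dzip3), 0.917 for Tet2 (Braf) and 0.946 for Tet3 (Bmp2k).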

How the data were processed

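FPKM values of the 10 libraries were deposited by the authors as 1 table. The submitters' processing notes name Cufflinks 2.1.0, TopHat2 2.1.0 and the build mm9. Not given in the sources used here were the annotation, the strand setting, the read length and the depth of sequencing, and values carry no counting interval for that reason. A repeated header line (1) was dropped. The 12412 genes whose FPKM averaged at least 1 in C57BL/6 libraries (8 libraries) were set to log2(FPKM + 1). A model with a term per group (limma 3.58.1, R 4.3.3, intensity trend, 5 residual degrees of freedom) gave two-sided p-values, adjusted by Benjamini-Hochberg over every gene tested and read at a threshold of 0.05. The slope on Zp3 came from the same model with log2(Zp3 + 1) added (4 residual degrees of freedom). Complexes, with 1 library per strain, were set against the 2-month cumulus mean on the log scale. The fit was tested on simulated data. The 8 genes, the lists and the tests were chosen with earlier results of these data known. From each list, up to 4 genes per contrast with the smallest p are named, of which not all are reported, and for likeness the 3 genes with the highest correlation. Genes beyond that rule (Aire, Nsd1 and Bhmt in mural cells, Kdm1b and Mat2b) were chosen after their values were seen. A list is described by its counts and its median. Promoter windows are from RefSeq (GRCm38.p6). Hmces, listed among the demethylation genes, was not matched by symbol. Alternatives changed the pseudocount, filter, scaling, weights, oocyte gene, block and libraries.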

Additional observations from a re-analysis of the deposited data

How the results depend on the processing

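The main limits are the 2 mural libraries, the unknown depth behind low values such as Tet1, Tet2, Dnmt3b and Dnmt3l, and the oocyte RNA that differs between replicates of 1 group. For single genes, direction and call were kept in 980 of 1093 values recomputed under alternatives, and counts and implied shares stayed close to the main value in 85 of 119, that is, within 1.5 times or 1 SD. Values of the same sign that passed in neither setting are included among those kept. Among the calls, the Dnmt3l slope passed in 7 of 17 alternatives, and in mural cells Dnmt1 passed in 14 and Uhrf1 in 16 of 17. The cause of the changes below was not tested. For the age comparison 0 of the 8 genes passed under any alternative, while the count over all genes was 69 with library weights and ran from 0 to 245 when 1 library was left out, the highest without 10-month replicate 2. For mural against cumulus cells the count over all genes was 5425 with library weights and 99 to 3253 when 1 library was left out (800 without mural replicate 1, 99 without mural replicate 2, 1698 and 1164 without 2-month cumulus replicates 1 and 2). Of the 8 genes, 4 passed with library weights (Dnmt3a and Dnmt3b as well), 1 with libraries rescaled to the same sum and 0 to 2 when 1 library was left out. For the slope on Zp3 the count over all genes was 15 to 304 when 1 library was left out (15 without 2-month cumulus replicate 3, 64 without replicate 2, 304 without replicate 1, 110 without 10-month replicate 2) and 0 without 2-month cumulus replicates 2 and 3, and that of the 8 genes was 0 to 1 when 1 library was left out. Dnmt3l did not pass with no filter on low values (limma adjusted p = 0.0577), in the 6 cumulus libraries alone (limma adjusted p = 0.0541) or without 2-month cumulus replicates 2 and 3, which gave 0 of the 8 genes each, and it was not tested with a mean FPKM of at least 5, which also gave 0. The median share of Dnmt3l implied by oocyte RNA was 89.3% with Bmp15.

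Some values changed sign, all of them near 0 but those of Dnmt3l, at 0.28 for age and -0.93 in mural cells. For age these were Dnmt3b (0.003 without 10-month replicate 3), Dnmt3l (-0.23 with Zp3 as a covariate, -0.61 without 2-month replicate 2) and Tet2 (-0.02 with library weights, -0.05 after quantile normalization, -0.09 without 10-month replicate 3 and -0.09 without 2-month replicate 1). Leaving out 1 library gave -0.13 to 0.003 for Dnmt3b, -0.61 to 1.21 for Dnmt3l and -0.09 to 0.19 for Tet2. For mural cells they were Dnmt3l (0.24 with library weights, 0.0007 without 2-month cumulus replicate 3), Tet1 (0.07 when rescaled, 0.01 without 2-month cumulus replicate 2) and Tet2 (-0.02 after quantile normalization), with -1.82 to 0.0007 for Dnmt3l and -0.17 to 0.01 for Tet1 when 1 library was left out. For the slope on Zp3 they were Dnmt3a (-0.01 with library weights, -0.02 without 2-month cumulus replicate 2), Dnmt3b (-0.01 after quantile normalization, -0.004 in the 6 cumulus libraries, -0.004 without either mural library), Tet1 (0.02 with library weights, 0.07 without 2-month cumulus replicate 2, 0.08 without replicates 2 and 3) and Tet2 (-0.02 after quantile normalization, -0.04 without 2-month cumulus replicate 3). With 1 library left out the slopes were -0.02 to 0.03 for Dnmt3a, -0.004 to 0.09 for Dnmt3b, -0.04 to 0.07 for Tet1 and -0.04 to 0.16 for Tet2.

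Replicate numbers are shared between groups in the labels. Deviations from the group means correlated by -0.05 to 0.21 between libraries of the same number, not above 0.1 in every pair, so the numbers were not taken to pair the libraries. With the replicate number as a block, 0 genes passed for age and 3361 for mural cells, among them Dnmt1 and Uhrf1, and 0 passed for the slope on Zp3, with 0 of the 8 genes. Under the block the slopes were -0.01 for Dnmt3a, -0.0002 for Dnmt3b, -0.06 for Tet2 and -0.14 for Tet3. Not every library correlated best with its own number.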

Other observations

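Kdm1b and Mat2b, genes of the lists chosen after their values were seen, were also at least 2-fold higher in both complexes than in 2-month cumulus cells. This was so of 10.9% of 12454 genes compared, and the share within the lists is not given here. The 2 genes are given as values and do not describe the lists. Kdm1b, a histone demethylase needed in mouse oocytes for maternal imprints, had 14.4 FPKM in the DBA/2 and 8.62 FPKM in the BDF1 complex, against 2.71, 2.84 and 6.05 FPKM in cumulus cells at 2 months, a ratio of 3.31- and 2.07-fold. Its slope on Zp3 within groups was 0.08 (95% interval -0.04 to 0.20; limma adjusted p = 1.00). Mat2b, the regulatory subunit of the enzyme that makes the methyl donor S-adenosylmethionine, had 228 and 244 FPKM in the complexes, against 54.7, 38.3 and 97.2 FPKM in cumulus cells at 2 months, a ratio of 3.83- and 4.09-fold, with a slope on Zp3 of 0.16 (limma adjusted p = 0.104). Both had their highest cumulus level in 2-month replicate 3, the cumulus library with the most Zp3.

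Bhmt, a methyl donor gene best known from liver, had 2.78 and 20.1 FPKM in mural cells, against 0, 0.111 and 0.171 FPKM in cumulus cells at 2 months, and did not pass (limma adjusted p = 0.0501). At 10 months it had 0, 1.07 and 6.12 FPKM, the highest in replicate 3, the library with the most mural markers among cumulus cells.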
